A study of Mus musculus with 16 samples.

Results

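Bone marrow-derived macrophages pretreated with TMP195 and then stimulated with TNFα were compared with macrophages given only DMSO, the vehicle, to find which transcripts stood away from the unstimulated level after stimulation under class IIa histone deacetylase inhibition. The libraries were chosen by their treatment labels: 4 labelled TMP195+TNFα and 4 labelled DMSO, together 8 of the 16 libraries of the study. All mice carried the genotype label B6.129P2-Apoetm1Unc/J, an Apoe-null line, with the strain label C57BL/6J, so the DMSO controls lack apolipoprotein E as well. Marrow cells were differentiated with conditioned medium of L929 fibroblasts, a source of macrophage colony-stimulating factor, kept without it for 24 h and stimulated without serum. TMP195 was given at 5 µM for 1 h before TNFα (50 ng/ml, 24 h), whereas the DMSO group is labelled with the vehicle alone. A further 4 libraries received the same TNFα without inhibitor and are set beside the results where stated, and the labels do not say whether those cells also received DMSO. No group received TMP195 without TNFα, so the effect of TMP195 on unstimulated cells was not measured, and the age and sex of the mice are not given in the sources used here.

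TNFα binds receptors that activate the IκB kinase complex and release NF-kB, a family of transcription factors that drives chemokine, adhesion and survival genes and also its own inhibitors. Class IIa histone deacetylases (HDAC4, HDAC5, HDAC7 and HDAC9) bind MEF2 transcription factors and move between nucleus and cytoplasm, and their catalytic site, which TMP195 occupies, has little activity on acetylated histones. Macrophages respond to TNFα with chemokines that recruit neutrophils and monocytes, and resting macrophages are known for endocytosis, for clearance of dying cells and for dividing when macrophage colony-stimulating factor is present.

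Between 18599132 and 22910668 reads were assigned to genes in each of the 8 libraries, so that 3 reads equal 0.131 to 0.161 on the counts-per-million (CPM) scale used here. Apoe (ENSMUSG00000002985), disrupted in this mouse line, lay between 0.156 and 0.469 CPM in these libraries and was too low to test. Of 17 macrophage markers 16 were tested and none was at 0: their summed level was 27965 to 37875 CPM in DMSO, 27258 to 36459 CPM in TNFα and 22387 to 28143 CPM in TMP195+TNFα. In bulk RNA, fewer cells of a type and less RNA per cell cannot be told apart. Ly6g, Elane, Ngp, Retnlg and S100a9 (neutrophils), Trbc2 and Gzma (lymphocytes), Cd209a and Ly6d (dendritic cells) and Hba-a1, Hbb-bs and Gata1 (red cell lineage) had no count in any of the 8 libraries. Reads that map to several places are not counted, so a 0 in a gene with close copies is less certain. Other members had counts: in DMSO these lists summed to 55.9 to 95.4, 141 to 189, 3.41 to 6.19 and, for red cells with megakaryocytes, 1135 to 1392 CPM. Separate mice or cultures are not named for the 4 replicates of a group, so each p-value is set by library-to-library spread, which may be technical.

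Of 12612 genes tested, 3463 (27.5%) differed between TMP195+TNFα and DMSO at a Benjamini-Hochberg adjusted p below 0.05 in edgeR. In TMP195+TNFα 1709 of these (13.6% of all tested) were higher and 1754 (13.9%) were lower, and the median log2 change over all genes was 0.00. With the replicate number as a block in the 8 libraries alone, 6205 genes were called, 3092 higher and 3113 lower. For 3840 genes (30.4%) the 4 libraries of one group lay entirely above the other, and 3122 of the called genes were among them. A change of at least 2-fold was called for 1359 genes (10.8%), 649 up (5.15%) and 710 down (5.63%). The far end was uneven: 101 genes rose at least 8-fold and 37 fell at least 8-fold. Genes raised at least 2-fold held 2.26% to 3.35% of gene-assigned counts in the DMSO libraries and 8.13% to 8.59% in the TMP195+TNFα libraries. Those lowered at least 2-fold held 3.78% to 4.62% in DMSO and 1.59% to 1.77% in TMP195+TNFα. These genes were chosen by the same contrast, so the shares are a description. In TNFα alone, against the same DMSO libraries, 2945 genes (23.4%) were called, and between TMP195+TNFα and TNFα alone 750 (5.95%) were, 372 (2.95%) higher and 378 (3.0%) lower with TMP195, or 1699 with the replicate number as a block. The first of these comparisons shares its DMSO libraries, and the second its TMP195+TNFα libraries, with the comparison described here. Of 9149 genes not called against DMSO, 7420 had a 95% confidence interval of the log2 change that lay within ±1.

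**Figure D1:**
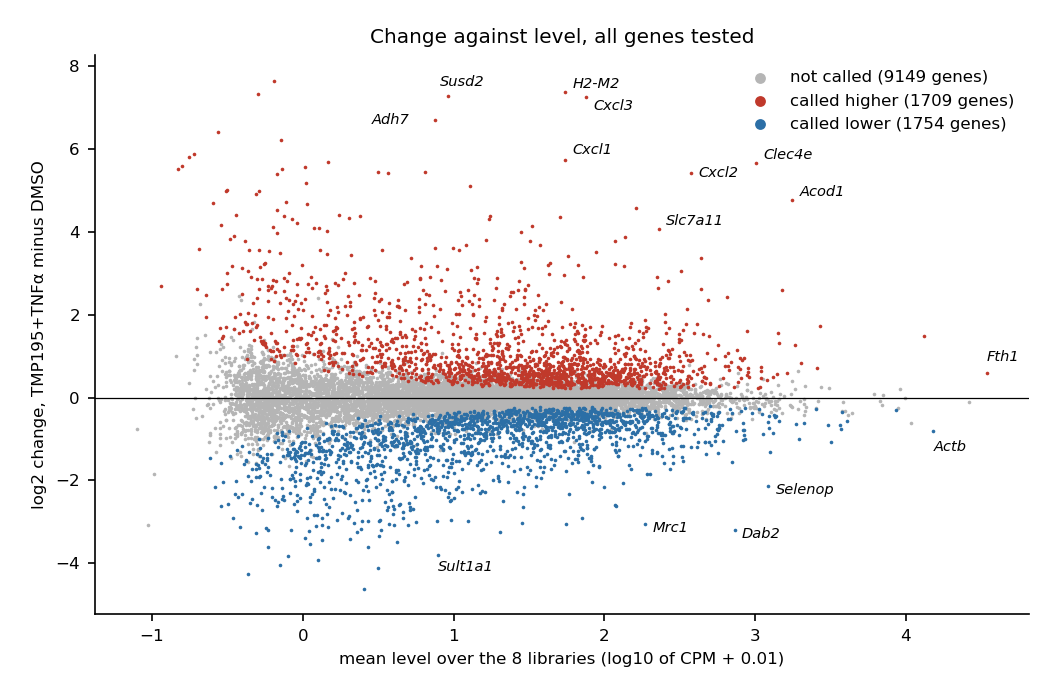
Log2 change of each of the 12612 genes tested (vertical axis, TMP195+TNFα minus DMSO) against its mean level over the 8 libraries (horizontal axis, log10 of CPM + 0.01). Grey points were not called (9149 genes), red points were called higher (1709) and blue points lower (1754), and the points farthest from 0 lie above it.

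Among the highest rises were those of neutrophil-attracting chemokines, an atypical major histocompatibility gene, a lectin receptor, a sushi domain gene and a dehydrogenase. Cxcl1, Cxcl2 and Cxcl3 encode ligands of the receptor CXCR2, which draws neutrophils into tissue. Cxcl3 (ENSMUSG00000029379, chr5:90786103-90789600 in GRCm38) stood at 0.735, 0.690, 0.492 and 2.03 CPM in DMSO replicates 1 to 4 and at 118, 187, 108 and 185 CPM in TMP195+TNFα replicates 1 to 4, a log2 change of 7.26 ± 0.49 (SE; adjusted p = 1.83e-08). Cxcl1 (ENSMUSG00000029380, chr5:90891241-90893115) went from 2.00, 3.94, 1.61 and 0.468 CPM to 90.4, 168, 127 and 45.7 CPM (5.74 ± 0.70, adjusted p = 7.74e-06), and replicate 4 was the lowest library of both groups. Cxcl2 (ENSMUSG00000058427, chr5:90903871-90905938) went from 14.3, 20.01, 14.5 and 19.8 CPM to 505, 835, 846 and 755 CPM (5.42 ± 0.28, adjusted p = 2.18e-09). The lowest TMP195+TNFα library was above the highest DMSO library for all 3 chemokines, which was a condition of their choice. With TNFα alone they stood at 146 ± 28.6, 102 ± 48.3 and 661 ± 111 CPM (SD, n = 4), and the difference between TMP195+TNFα and TNFα was 0.04 ± 0.34, 0.09 ± 0.54 and 0.15 ± 0.23 log2 units (adjusted p = 0.979, 0.967 and 0.83).

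The stretch of 250 bases before each of these start sites is shown because the 3 genes rose together and lie in one chemokine cluster on chromosome 5. It is given 5′ to 3′ on the strand of the gene from RefSeq (GRCm38.p6), with matches to an NF-kB-type word (GGG, then any 2 bases, then TTTCC), searched on both strands, in capitals. The intervals are chr5:90890995-90891244 for Cxcl1, chr5:90903649-90903898 for Cxcl2 and chr5:90785851-90786100 for Cxcl3, all on the plus strand.
Cxcl1: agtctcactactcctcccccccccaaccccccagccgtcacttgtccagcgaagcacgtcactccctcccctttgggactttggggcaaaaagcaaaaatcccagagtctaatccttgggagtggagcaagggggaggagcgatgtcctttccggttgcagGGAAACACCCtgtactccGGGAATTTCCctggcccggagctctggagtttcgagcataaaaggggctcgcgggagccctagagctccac
Cxcl2: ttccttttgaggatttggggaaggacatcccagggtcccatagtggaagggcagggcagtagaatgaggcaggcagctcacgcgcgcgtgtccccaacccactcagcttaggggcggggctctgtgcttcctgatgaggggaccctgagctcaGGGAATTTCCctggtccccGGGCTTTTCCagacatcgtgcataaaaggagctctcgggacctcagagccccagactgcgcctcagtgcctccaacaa
Cxcl3: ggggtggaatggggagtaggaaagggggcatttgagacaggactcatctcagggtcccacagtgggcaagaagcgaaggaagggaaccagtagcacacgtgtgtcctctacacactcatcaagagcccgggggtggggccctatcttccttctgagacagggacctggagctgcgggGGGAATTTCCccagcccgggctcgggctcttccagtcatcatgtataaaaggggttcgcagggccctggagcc
The matches begin 89 and 71 bases before the start site in Cxcl1, 97 and 78 bases before it in Cxcl2 and 73 bases before it in Cxcl3. In windows from 250 bases before to 50 after the start site, the word occurred in 1.90% of 27025 genes and in 2.11% of the 9289 tested genes with a window. Among cytokine and chemokine genes with a window it occurred in 7 of 19: in 5 of 11 called higher, 0 of 4 called lower and 2 of 4 not called. A match is a description of letters and not of binding.

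H2-M2 (ENSMUSG00000016283), a nonclassical class I histocompatibility gene, stood at 0.683, 0.493, 0.492 and 0.936 CPM in DMSO and at 103, 74.2, 158 and 98.6 CPM in TMP195+TNFα (7.38 ± 0.66, adjusted p = 3.07e-07), the largest rise among genes with a mean of at least 5 CPM and no overlap between groups. Class I genes share sequence, so the level of H2-M2 from uniquely mapped reads is less certain. Clec4e (ENSMUSG00000030142), which encodes Mincle, a receptor for mycobacterial glycolipid and for products of dead cells, went from 40.0, 34.2, 43.5 and 40.4 CPM to 2459, 1423, 2463 and 1638 CPM (5.66 ± 0.46, adjusted p = 1.44e-07). It was among the most abundant risen transcripts, 50.5 times the DMSO mean. Susd2, a sushi domain gene, had 2, 2, 1 and 4 reads in the 4 DMSO libraries and 16.2, 4.88, 20.3 and 31.6 CPM in TMP195+TNFα (7.28 ± 0.95, adjusted p = 1.62e-05). Adh7, an alcohol and retinol dehydrogenase, had 3, 5, 2 and 1 reads in DMSO and 15.0, 11.6, 15.0 and 17.9 CPM in TMP195+TNFα (6.71 ± 0.43, adjusted p = 1.13e-08). Orm1, the acute-phase protein orosomucoid, had 2, 6, 13 and 2 reads in DMSO and 12.2, 10.2, 16.2 and 12.1 CPM in TMP195+TNFα (5.46 ± 0.49, adjusted p = 3.11e-07). The size of these last 3 ratios rests on few DMSO reads. Replicate 2 was the lowest TMP195+TNFα library for H2-M2, Clec4e and Susd2. No library of either group overlapped the other group for these 5 genes, which was a condition of their choice and not a result.

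**Figure D2:**
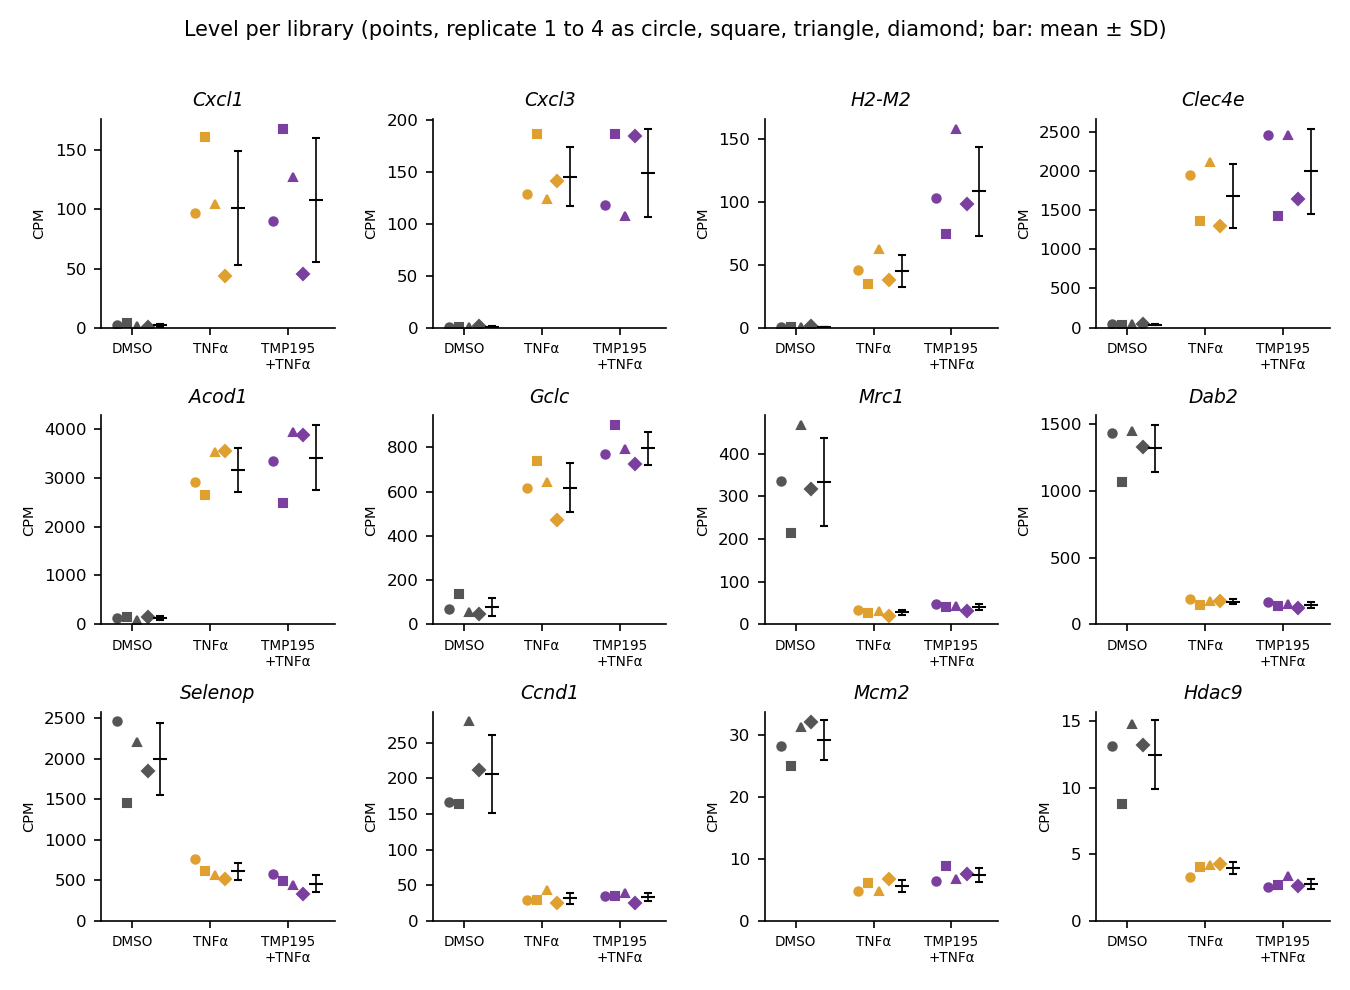
CPM (vertical axes, linear, from 0) of 12 genes in each DMSO, TNFα and TMP195+TNFα library; points are libraries, with replicates 1 to 4 as circle, square, triangle and diamond, and bars are mean ± SD (n = 4). All TMP195+TNFα points of Cxcl1, Cxcl3, H2-M2, Clec4e, Acod1 and Gclc lie above the DMSO points, and those of Mrc1, Dab2, Selenop, Ccnd1, Mcm2 and Hdac9 lie below them. For Cxcl1, Cxcl3, H2-M2, Clec4e, Mrc1 and Dab2 this was a condition of their choice.

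Cytokines and chemokines moved both ways. Of 30 tested members 17 were higher and 6 lower, with a median log2 change of 0.88 against 0.00 over all genes, and with TNFα alone, against the same DMSO libraries, 14 were higher and 4 lower. Among all genes tested 13.6% were higher and 13.9% lower than DMSO, and every list count below stands beside these shares. Il1a, encoding the alarmin interleukin-1α, went from 4.34 ± 2.78 to 59.8 ± 14.5 CPM (3.78 ± 0.35, adjusted p = 3.94e-07). Il1b, which encodes secreted interleukin-1β, stood at 1.10, 1.38, 1.07 and 2.03 CPM in DMSO and at 6.17, 5.16, 11 and 6.5 CPM in TMP195+TNFα (2.37 ± 0.44, adjusted p = 0.000487). Il6 rose from 1, 2, 2 and 4 reads per DMSO library to 1.31, 0.281, 1.00 and 0.850 CPM (2.87 ± 0.58, adjusted p = 0.00108). Csf3, which encodes granulocyte colony-stimulating factor, had no read in any DMSO library and 2, 9, 9 and 4 reads in TMP195+TNFα, at least 7.76-fold higher against a floor of 3 counts over the DMSO group, and with that bound the median of the list stayed 0.88. Tnf itself stood at 219, 220.2, 223 and 309.6 CPM in DMSO and 428, 452, 549.8 and 550.3 CPM in TMP195+TNFα (1.03 ± 0.16, adjusted p = 0.000119), with no overlap between the groups. Cxcl5, a further CXCR2 ligand, Cxcl10, which attracts T cells, and Ccl5 were higher by 5.70 ± 0.89, 2.95 ± 0.45 and 1.94 ± 0.43 log2 units (adjusted p = 9.93e-05, 7.5e-05 and 0.00225), Cxcl5 from 0, 4, 0 and 0 reads in the 4 DMSO libraries.

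Of the 6 members that fell, 5 were CC chemokines, and 3 of these are ligands of CCR2, a receptor of monocytes. Ccl2, the main monocyte chemoattractant, stood at 162, 118, 161 and 119.6 CPM in DMSO and at 68.6, 23.9, 58.4 and 24.8 CPM in TMP195+TNFα, a change of -1.68 ± 0.35 (adjusted p = 0.00141). Ccl7 changed by -2.59 ± 0.43 (adjusted p = 0.000171) and Ccl12 by -1.72 ± 0.34 (adjusted p = 0.000821), both also ligands of CCR2. For all 3 genes replicates 2 and 4 were the lowest TMP195+TNFα libraries, and the groups did not overlap. Ccl6 changed by -1.14 ± 0.22 (adjusted p = 0.00076), and Ccl8 by -0.62 ± 0.22 (adjusted p = 0.044). Ebi3, which encodes a subunit shared by interleukin heterodimers, was the last of the lower members (-0.67 ± 0.22, adjusted p = 0.0307). The call of Ccl8 was lost without any one library other than DMSO replicate 4 or TMP195+TNFα replicate 1 (adjusted p = 0.0632 to 0.158), and that of Ebi3 without DMSO replicate 1 or 4 or TMP195+TNFα replicate 1, 2 or 3 (0.0756 to 0.113).

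In the NF-kB pathway list 14 of 35 members were higher and 1 lower (median log2 change 0.27), beside 17 and 0 with TNFα alone. With the replicate block 19 were higher and 1 lower than DMSO. Of the 5 NF-kB subunits Nfkb2 was higher (0.94, adjusted p = 0.00215), and Nfkb1, Rela, Relb and Rel were not called. Inhibitors stood on both sides of the threshold: Nfkbia, Nfkbib, Nfkbie, Tnfaip3 and Tnip1 were higher, while Nfkbid, Bcl3, Tnip2, Tnip3 and Cyld were not called. Likewise the adaptors Traf1, Traf2, Traf3 and Traf6 were higher, and Tradd and Tab2 were not called. Traf1, an adaptor of TNF receptors, stood at 8.93, 9.46, 8.09 and 13.003 CPM in DMSO and 93.2, 92.03, 108 and 126 CPM in TMP195+TNFα (3.41 ± 0.17, adjusted p = 2.18e-09). Nfkbie and Nfkbia, which encode the inhibitors IκBε and IκBα, changed by 2.25 ± 0.21 (adjusted p = 5.12e-07) and 1.31 ± 0.20 (adjusted p = 7.77e-05). Tnfaip3, encoding the ubiquitin-editing inhibitor A20, went from 73.5, 81.7, 72.7 and 84.4 CPM to 184, 225, 219.6 and 218 CPM (1.44 ± 0.13, adjusted p = 3.02e-07). Ikbkb and Chuk, the catalytic kinases of the pathway, differed by 0.12 ± 0.08 and 0.13 ± 0.15 (adjusted p = 0.317 and 0.587), with intervals of -0.05 to 0.29 and -0.18 to 0.43. The single lower member, Nfkbiz, a nuclear IκB, stood at 315, 311, 333 and 408 CPM in DMSO, 297, 354, 307 and 384 CPM in TNFα and 197, 211, 204 and 214 CPM in TMP195+TNFα (-0.73 ± 0.14 against DMSO, adjusted p = 0.000822; -0.70 ± 0.14 against TNFα, adjusted p = 0.00716). The NF-kB-type word occurred in the start-site window of 6 of 14 higher members and 2 of 15 members not called.

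Prostaglandin and leukotriene genes, a list of enzymes and receptors, moved both ways, with 6 of 15 members higher and 4 lower. Ptgs2, encoding the inducible cyclooxygenase, stood at 3.36, 4.44, 2.59 and 2.70 CPM in DMSO and 41.8, 55.6, 66.4 and 46.1 CPM in TMP195+TNFα (4.001 ± 0.27, adjusted p = 2.33e-08). Ptges, which makes prostaglandin E from its product, changed by 2.595 ± 0.21 (adjusted p = 1.28e-07), Pla2g7, a secreted phospholipase, by 2.01 ± 0.28 (adjusted p = 3.65e-05) and Ltc4s, the leukotriene C synthase, by 2.52 ± 0.42 (adjusted p = 0.00019). Hpgds, the prostaglandin D synthase of blood cells, fell from 233 ± 49.5 to 70.3 ± 14.2 CPM (-1.73 ± 0.17, adjusted p = 8.31e-07). Alox5, the 5-lipoxygenase, changed by -1.92 ± 0.28 (adjusted p = 6.1e-05) from a DMSO mean of 1.77 ± 0.331 CPM, and against TNFα by -1.35 ± 0.29 (adjusted p = 0.0108).

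Of the 29 pathway lists, those of cell division had the largest share of lowered genes. Of 44 genes of DNA replication and S phase, 40 were lower and 0 higher (median -1.42), and of 47 mitosis and G2/M genes, 45 were lower and 0 higher (median -1.98). With TNFα alone, against the same DMSO libraries, 41 and 43 were lower and 0 higher (medians -1.77 and -2.25). Between TMP195+TNFα and TNFα 0 and 1 were lower and 0 higher (medians 0.23 and 0.29). Rrm2, a subunit of the reductase that makes deoxynucleotides, stood at 21.0, 16.4, 31.0 and 20.1 CPM in DMSO and 2.46, 3.84, 3.54 and 1.36 CPM in TMP195+TNFα (-2.99 ± 0.33, adjusted p = 3.34e-06). Mcm5, Mcm7 and Mcm2, parts of the replicative helicase, changed by -2.41 ± 0.20, -2.31 ± 0.19 and -1.98 ± 0.16 (adjusted p = 1.32e-07, 1.45e-07 and 1.46e-07). Ccna2, which encodes cyclin A, went from 13.2, 7.19, 17.8 and 16.8 CPM to 1.31, 2.44, 2.54 and 0.722 CPM (-2.98 ± 0.41, adjusted p = 3.2e-05), and the spindle motor Kif23 from 5.94, 5.77, 10.1 and 9.26 CPM to 0.873, 0.844, 0.529 and 0.510 CPM (-3.49 ± 0.32, adjusted p = 3.45e-07). Cdk1, the mitotic kinase, and Prc1, a spindle midzone protein, changed by -1.42 ± 0.14 and -2.52 ± 0.27 (adjusted p = 6.16e-07 and 1.83e-06). The groups did not overlap for any of these 8 genes, which for Rrm2 and Ccna2 was a condition of their choice. Members not called were Gins3, Orc6, Pola2 and E2f1 in the first list (-0.24, -0.53, -0.04 and -0.44) and Incenp and Hmmr in the second (-0.46 and 0.19). With the replicate block 42 members of the first list and 46 of the second were lower, so some of these were then called.

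Among cyclins and kinase inhibitors, 6 of 22 were higher and 8 lower. Ccnd1, the cyclin D that responds to growth factors, stood at 167, 164, 281 and 212 CPM in DMSO and 34.7, 35.1, 38.7 and 25.3 CPM in TMP195+TNFα (-2.62 ± 0.23, adjusted p = 2.33e-07). Cdkn2b, encoding the inhibitor p15 of cyclin D kinases, went from 1.94, 5.62, 2.995 and 3.28 CPM to 21.8, 26.1, 26.7 and 27.2 CPM (2.88 ± 0.22, adjusted p = 7.3e-08), and with TNFα alone stood at 22.0, 27.0, 27.8 and 25.3 CPM. Cdkn1c, encoding the inhibitor p57, stood at 6.41, 5.12, 4.605 and 2.29 CPM in DMSO, 5.80, 4.96, 5.55 and 2.85 CPM in TNFα and 38.8, 33.6, 30.8 and 34.1 CPM in TMP195+TNFα. Its change was 2.89 ± 0.33 against DMSO (adjusted p = 3.9e-06) and 2.84 ± 0.33 against TNFα (adjusted p = 0.000137), and all TMP195+TNFα libraries were above all others. Btg1, an antiproliferative gene, changed by 1.23 ± 0.11 (adjusted p = 3.91e-07) against DMSO and by 0.42 ± 0.11 (adjusted p = 0.0326) against TNFα. Cdkn1a, encoding p21, differed by 0.08 ± 0.18 (adjusted p = 0.788).

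Antioxidant genes, many of them targets of the transcription factor NRF2, had the highest median of the 29 pathway lists: 24 of 32 were higher and 1 lower, median 1.15. With TNFα alone 24 were higher and 0 lower against the same DMSO libraries (median 1.03). In the direct comparison 4 were higher with TMP195 and 0 lower. Slc7a11, the cystine importer that supplies glutathione synthesis, stood at 29.2, 36.7, 18.9 and 17.8 CPM in DMSO and 434, 362, 464 and 472 CPM in TMP195+TNFα (4.08 ± 0.26, adjusted p = 1.08e-08). Gclc, the rate-limiting catalytic subunit of glutathione synthesis, went from 70.4, 135, 54.9 and 48.2 CPM to 769, 902, 791 and 725 CPM (3.37 ± 0.30, adjusted p = 2.88e-07). Gss, which completes glutathione, went from 13.2 ± 2.44 to 121 ± 27.8 CPM (3.20 ± 0.20, adjusted p = 8.26e-09) and was also higher than with TNFα alone (0.72 ± 0.18, adjusted p = 0.0223). Txnrd1, Nqo1 and Hmox1, which encode thioredoxin reductase, a quinone reductase and heme oxygenase, changed by 2.14 ± 0.16, 2.42 ± 0.27 and 1.72 ± 0.19 (adjusted p = 5.41e-08, 3.34e-06 and 3.37e-06). In DMSO replicate 2 Hmox1, Gclc, Txnrd1 and Nqo1 were higher than in the other 3 DMSO libraries, and still below every TMP195+TNFα library. The selective autophagy receptor Sqstm1 went from 337, 581, 351 and 437 CPM to 1831, 2611, 2530.1 and 3436 CPM (2.61 ± 0.23, adjusted p = 2.88e-07) and Prdx1, an abundant peroxidase, from 6915 ± 2303 to 19429 ± 2242 CPM (1.49 ± 0.22, adjusted p = 6.9e-05). The lower member was Gpx1, a glutathione peroxidase (-0.43 ± 0.15, adjusted p = 0.0458), whose call was lost without DMSO replicate 1 or 4 or TMP195+TNFα replicate 1 or 2 (adjusted p = 0.0588 to 0.167).

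Most glucose uptake and glycolysis genes were higher, and nuclear oxidative phosphorylation genes were not called. Of 31 glycolysis and hypoxia genes 21 were higher and 1 lower (median 0.72), or 24 and 2 with the replicate block. TNFα alone gave 22 higher and 2 lower than DMSO (median 0.61), and the direct comparison 3 higher and 2 lower. Slc2a1, the glucose transporter GLUT1, stood at 62.7, 78.7, 61.5 and 85.6 CPM in DMSO and 153, 178, 205 and 231 CPM in TMP195+TNFα (1.41 ± 0.15, adjusted p = 1.71e-06). Egln3, an oxygen-sensing prolyl hydroxylase, Pgk1, a glycolytic kinase, Slc16a3, the lactate exporter, and Adm, the peptide adrenomedullin, changed by 2.47 ± 0.24, 1.01 ± 0.12, 1.72 ± 0.26 and 2.38 ± 0.29 (adjusted p = 8.66e-07, 4.79e-06, 7.99e-05 and 8.83e-06). Ndrg1, often induced by hypoxia, was the lower member, at 499, 577, 573 and 872 CPM in DMSO and 258, 289.8, 303 and 345 CPM in TMP195+TNFα (-1.08 ± 0.21, adjusted p = 0.000837). None of 40 oxidative phosphorylation genes was called, and their log2 changes ran from -0.27 to 0.25. With the replicate block 2 of them were called lower.

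Of 17 arginine, nitric oxide and itaconate genes 9 were higher and 1 lower (median 0.69). Acod1, which makes the antibacterial metabolite itaconate, stood at 122, 155, 77.8 and 148 CPM in DMSO and 3349, 2492, 3936 and 3888 CPM in TMP195+TNFα (4.76 ± 0.32, adjusted p = 1.79e-08). Ass1, which recycles citrulline to arginine, went from 74.1, 89.0, 45.2 and 68.7 CPM to 492, 460.1, 593 and 743 CPM (3.05 ± 0.30, adjusted p = 7.07e-07), and Cybb, the catalytic subunit of the phagocyte oxidase, changed by 1.56 ± 0.27 (adjusted p = 0.000265). Nos2, the inducible nitric oxide synthase, and Arg2, the mitochondrial arginase, also rose (4.21 ± 0.64 and 4.52 ± 0.55, adjusted p = 7.9e-05 and 8.05e-06), but stood at only 1.73 ± 0.683 and 1.27 ± 0.580 CPM in TMP195+TNFα. Among iron genes 6 of 17 were higher and 2 lower (4 lower with the replicate block). Spic, a transcription factor of heme-handling macrophages, and Lcn2, a siderophore-binding protein, changed by 2.66 ± 0.24 and 2.87 ± 0.29 (adjusted p = 3.61e-07 and 1.24e-06), and Lcn2 was below its TNFα level (-0.94 ± 0.25, adjusted p = 0.0334). Fth1, ferritin heavy chain and the transcript with the highest mean CPM in TMP195+TNFα, went from 27465 ± 2154 to 41287 ± 3034 CPM (0.59 ± 0.16, adjusted p = 0.0091). Tfrc, the transferrin receptor, and Hfe, its regulator, changed by -1.35 ± 0.20 and -1.49 ± 0.12 (adjusted p = 5.18e-05 and 1.45e-07).

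Amino acid stress-response genes of the transcription factor ATF4 moved upward as a list: 21 of 30 were higher and 0 lower than DMSO, median 0.80, or 24 and 0 with the replicate block. ATF4 is translated when amino acids are short or the eIF2α kinases are active and raises amino acid transporters, synthetases and tRNA ligases. With TNFα alone 7 were higher and 0 lower against the same DMSO libraries (median 0.23), and between TMP195+TNFα and TNFα 7 were higher and 0 lower (median 0.50). Mthfd2, a mitochondrial folate enzyme, stood at 27.9, 37.8, 22.9 and 30.1 CPM in DMSO, 48.0, 57.3, 54.6 and 63.1 CPM in TNFα and 91.4, 88.3, 86.5 and 122 CPM in TMP195+TNFα (1.71 ± 0.20 against DMSO, adjusted p = 5e-06; 0.80 ± 0.19 against TNFα, adjusted p = 0.0198). Asns, asparagine synthetase, stood at 38.1, 51.4, 35.99 and 42.3 CPM in DMSO, 36.7, 53.7, 37.6 and 49.2 CPM in TNFα and 88.9, 88.4, 71.0 and 123 CPM in TMP195+TNFα (1.15 ± 0.24, adjusted p = 0.00133; 1.07 ± 0.24 against TNFα, adjusted p = 0.0123). The DMSO and TNFα ranges of Asns overlapped, and the TMP195+TNFα libraries lay above both.

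Trib3, a pseudokinase induced by ATF4, stood at 2.00, 3.01, 1.25 and 2.65 CPM in DMSO, 1.65, 2.16, 1.61 and 4.15 CPM in TNFα and 8.46, 8.16, 6.77 and 19.0 CPM in TMP195+TNFα (2.26 ± 0.48, adjusted p = 0.00165; 2.16 ± 0.48 against TNFα, adjusted p = 0.012). Slc3a2, the shared heavy chain of amino acid exchangers, changed by 1.35 ± 0.13 (adjusted p = 6.28e-07) and Atf4 itself by 1.04 ± 0.17 (adjusted p = 0.000137). Chac1, a glutathione-degrading enzyme, and Phgdh, the first enzyme of serine synthesis, changed by 2.76 ± 0.76 and 2.13 ± 0.59 (adjusted p = 0.0109 and 0.0118). Replicate 4 was the highest TMP195+TNFα library for Mthfd2, Asns, Trib3, Chac1, Phgdh and Atf4. Without it Chac1 and Phgdh missed the threshold (adjusted p = 0.0548 and 0.0556). With 1 of the 8 libraries left out, 15 to 22 members of the ATF4 list were higher and 0 lower. Of 27 endoplasmic reticulum chaperone and unfolded protein genes 5 were higher and 1 lower (2 lower with the replicate block). Their share called without the block was below the 27.5% among all genes tested. Without TMP195+TNFα replicate 1 only 1 of the 27 was higher, and without DMSO replicate 3 or 4 it was 3. Hyou1, a chaperone, changed by 0.58 ± 0.12 (adjusted p = 0.000959) and Herpud1, a degradation factor, by -0.93 ± 0.20 (adjusted p = 0.00212).

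**Figure D3:**
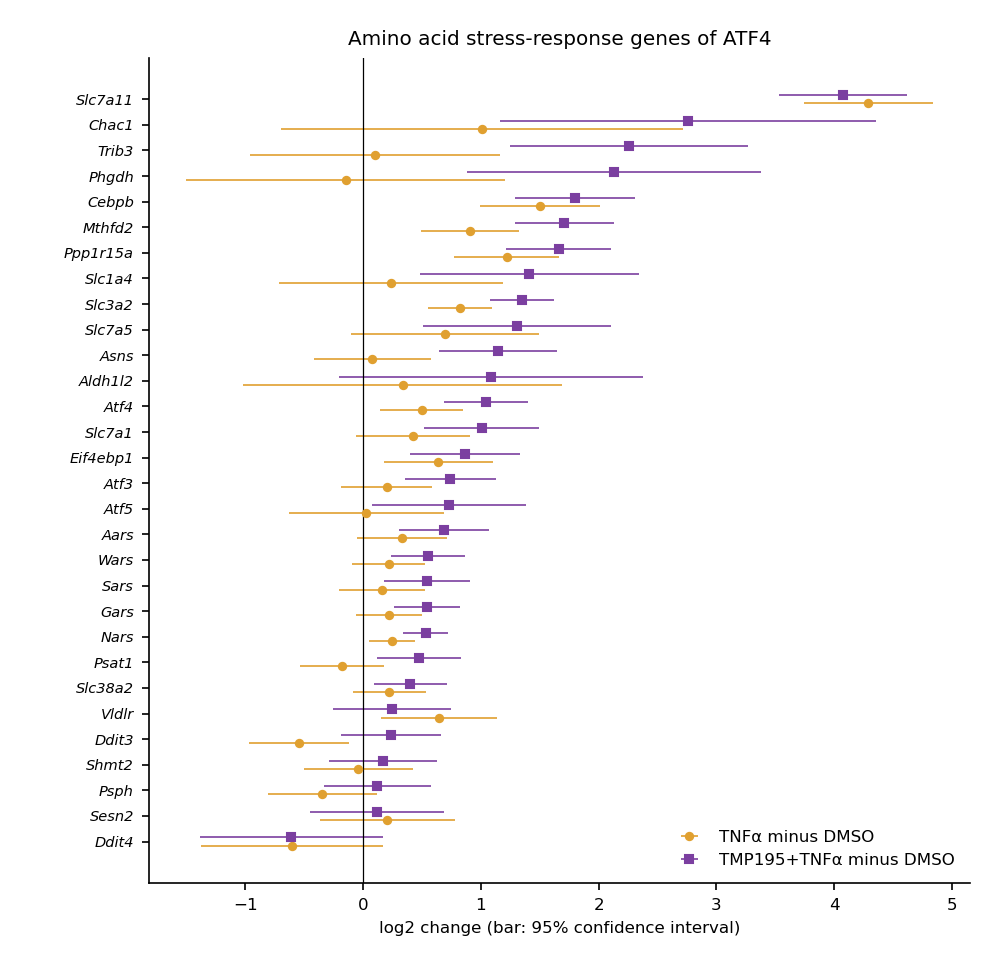
Log2 change from DMSO (horizontal axis) of the 30 tested ATF4 stress-response genes (vertical axis) with TNFα alone (circles) and with TMP195+TNFα (squares); bars are 95% confidence intervals, and both comparisons use the same 4 DMSO libraries. For TMP195+TNFα 21 genes were called, all above 0, and Slc7a11, which is also a member of the antioxidant list, stands at 4.08 as the highest.

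The 250 bases before the start site are shown for 3 of these genes, Slc7a11, Chac1 and Asns, chosen after their values were seen because they hold the ATF4-type word TGATGNAA, searched on both strands and set in capitals. They come from RefSeq (GRCm38.p6) and run 5′ to 3′ on the strand of the gene: chr3:50443614-50443863 (minus strand), chr2:119350992-119351241 (plus strand) and chr6:7693210-7693459 (minus strand).
Slc7a11: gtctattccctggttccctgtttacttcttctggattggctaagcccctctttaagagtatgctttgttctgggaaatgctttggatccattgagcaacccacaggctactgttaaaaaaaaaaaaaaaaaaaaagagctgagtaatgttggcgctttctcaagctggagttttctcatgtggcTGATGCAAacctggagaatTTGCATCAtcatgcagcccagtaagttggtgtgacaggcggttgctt
Chac1: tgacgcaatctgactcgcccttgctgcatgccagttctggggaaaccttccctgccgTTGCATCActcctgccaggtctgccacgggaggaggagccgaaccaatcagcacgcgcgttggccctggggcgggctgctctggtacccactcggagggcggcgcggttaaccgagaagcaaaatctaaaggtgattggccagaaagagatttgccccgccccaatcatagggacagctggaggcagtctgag
Asns: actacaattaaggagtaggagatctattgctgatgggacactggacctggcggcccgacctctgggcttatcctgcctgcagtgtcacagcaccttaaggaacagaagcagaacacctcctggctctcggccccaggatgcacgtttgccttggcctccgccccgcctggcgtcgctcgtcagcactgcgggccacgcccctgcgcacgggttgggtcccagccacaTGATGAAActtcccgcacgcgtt
The matches begin 66 and 47 bases before the start site in Slc7a11, 193 in Chac1 and 23 in Asns. In windows from 250 bases before to 50 after the start site, TGATGNAA occurred in 4.51% of 27025 genes and in 2.89% of the 9289 tested genes with a window. It occurred in 9 of the 25 ATF4 list members with a window, 8 of 17 called higher and 1 of 8 not called. Trib3 holds its match after the start site and is not printed.

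The largest falls outside the cell cycle included an endocytic adaptor and the mannose receptor of resting macrophages. Dab2 (ENSMUSG00000022150, chr15:6299788-6440712), an endocytic adaptor, stood at 1433, 1066, 1450.3 and 1331 CPM in DMSO and 168, 137, 153 and 118 CPM in TMP195+TNFα (-3.19 ± 0.20, adjusted p = 1.11e-08). Mrc1 (ENSMUSG00000026712, chr2:14229392-14332057), the mannose receptor CD206, went from 336, 214, 467 and 316 CPM to 47.0, 40.2, 41.7 and 31.4 CPM (-3.06 ± 0.28, adjusted p = 4.07e-07). Sult1a1, a phenol sulfotransferase, went from 12.7, 7.49, 22.4 and 16.1 CPM to 1.75, 0.563, 1.06 and 0.892 CPM (-3.80 ± 0.34, adjusted p = 3.19e-07), the largest fall under the same level and overlap limits. The highest TMP195+TNFα library was below the lowest DMSO library for each of them, which was a condition of their choice. Rgs2, a brake on G protein signalling, Pcp4l1, a calmodulin-binding peptide, and Abcg3, a transporter of the ABCG family, changed by -3.06 ± 0.35, -3.03 ± 0.29 and -3.01 ± 0.31 (adjusted p = 3.8e-06, 5.89e-07 and 1.26e-06). Selenop, an abundant secreted selenoprotein chosen after its values were seen, went from 1997 ± 443 to 458 ± 105.4 CPM (-2.13 ± 0.23, adjusted p = 1.9e-06).

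Of 19 genes that act in efferocytosis, the clearance of dying cells, 12 were lower and 1 higher (median -0.90). Beside this, 12 were lower and 0 higher with TNFα alone (median -0.82), and 2 lower and 1 higher in the direct comparison. Mertk, a receptor tyrosine kinase for coated dead cells, stood at 82.4, 63.4, 77.5 and 57.1 CPM in DMSO and 30.02, 18.2, 32.7 and 17.5 CPM in TMP195+TNFα (-1.51 ± 0.24, adjusted p = 0.000139). Its bridging ligand Pros1 stood at 64.9, 50.7, 68.0 and 60.4 CPM in DMSO, 40.0, 34.9, 39.0 and 33.7 CPM in TNFα and 21.6, 16.1, 17.5 and 15.4 CPM in TMP195+TNFα (-1.79 ± 0.18, adjusted p = 1.03e-06; -1.07 ± 0.18 against TNFα, adjusted p = 0.00225). The 3 groups of Pros1 did not overlap. Stab2, a phosphatidylserine receptor, changed by -3.43 ± 0.35 (adjusted p = 1.5e-06), and Dock2, an activator of Rac, by -0.90 ± 0.10 against DMSO (adjusted p = 3.33e-06) and -0.43 ± 0.10 against TNFα (adjusted p = 0.017). The receptor Axl, the bridging ligand Mfge8, the adaptor Elmo1 and the GTPase Rac1 were not called (-0.52, 0.06, -0.34 and -0.25, adjusted p = 0.343, 0.86, 0.119 and 0.117). The higher member was Itgb3, the β3 integrin (1.25 ± 0.36, adjusted p = 0.0147), whose call was lost without TMP195+TNFα replicate 4 (adjusted p = 0.0649).

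Complement and Fc receptor genes were lower in 14 of 23 and higher in 3 (median -0.81), beside 6 lower and 3 higher with TNFα alone (median -0.20). In the direct comparison 5 were lower with TMP195 and 0 higher. C1qc, a chain of the recognition molecule of the classical pathway, stood at 833, 644, 738 and 1025 CPM in DMSO and at 337, 300.4, 288 and 349.9 CPM in TMP195+TNFα (-1.34 ± 0.15, adjusted p = 4.26e-06), and its partner chain C1qa changed by -1.22 ± 0.14 (adjusted p = 4.34e-06). The anaphylatoxin receptor gene C5ar1 stood at 289, 221, 337 and 409 CPM in DMSO, 173, 126, 201 and 229 CPM in TNFα and 97.4, 61.2, 101 and 88.4 CPM in TMP195+TNFα (-1.85 ± 0.25, adjusted p = 2.34e-05; -1.07 ± 0.25 against TNFα, adjusted p = 0.0149). C3ar1, its relative, changed by -1.08 ± 0.14 (adjusted p = 1.67e-05), and Clec4a2, an inhibitory lectin receptor, by -1.40 ± 0.24 (adjusted p = 0.000236). C3, the central complement protein, moved the other way, from 133, 93.5, 116 and 153 CPM to 989.9, 548, 795 and 700.3 CPM (2.61 ± 0.29, adjusted p = 2.91e-06).

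Of the nucleic acid-sensing receptors, Tlr7, Tlr8 and Tlr9 were lower, while Tlr3 and Tlr13 were not called (-0.51 and -0.07, adjusted p = 0.141 and 0.835). The surface receptors Tlr1, Tlr2 and Tlr4 were not called either. Of 20 genes 5 were lower and 1 higher (median -0.24), with 9 lower under the replicate block, and 6 were lower against TNFα alone. Against DMSO and without the block, the share called was near the 27.5% among all genes tested. Tlr8 stood at 263, 193, 229.9 and 169 CPM in DMSO and 84.2, 39.8, 53.0 and 29.1 CPM in TMP195+TNFα (-2.06 ± 0.37, adjusted p = 0.000416), and Tlr9 and Tlr7 changed by -1.83 ± 0.23 and -1.16 ± 0.23 (adjusted p = 1.2e-05 and 0.000976). Unc93b1, the chaperone that carries these endosomal receptors, changed by -0.73 ± 0.19 (adjusted p = 0.00847). Tlr2, Tlr4 and the coreceptor Cd14 differed by -0.05 ± 0.10, -0.05 ± 0.26 and -0.22 ± 0.17 (adjusted p = 0.754, 0.924 and 0.405), Cd14 was called lower with the replicate block in the 8 libraries alone (0.0194), and Tlr6 was the higher member (0.67 ± 0.14, adjusted p = 0.00125).

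Macrophage identity genes were not lowered uniformly. Of 16 tested macrophage markers 9 were lower and 1 higher (median -0.52), or 12 and 2 with the replicate block. Maf, a transcription factor of macrophages, changed by -1.36 ± 0.17 (adjusted p = 9.13e-06). Csf1r, the receptor for macrophage colony-stimulating factor, was higher, at 553, 477, 559 and 694 CPM in DMSO and 954, 889, 1204 and 1392 CPM in TMP195+TNFα (0.96 ± 0.20, adjusted p = 0.00141). Adgre1, which encodes F4/80, and Lyz2, lysozyme, differed by -0.36 ± 0.14 and -0.60 ± 0.24 (adjusted p = 0.0721 and 0.074) and were called lower with the replicate block (adjusted p = 0.0015 and 0.000792), and without DMSO replicate 2 (0.0224 and 0.0347). Both were also called lower with DESeq2 (0.0482 and 0.0466) and less the shallow TPCA-1+TNFα library (0.0481 and 0.0268), and Lyz2 without the filter on low counts (0.0315) and in the 8 libraries alone (0.03). Cd68, a lysosomal glycoprotein, differed by -0.15 ± 0.15 (adjusted p = 0.537). The lineage regulator Spi1 differed by -0.28 ± 0.11 (adjusted p = 0.0816) and was called lower with the replicate block (adjusted p = 0.0162) and without DMSO replicate 2 (0.0473) or TMP195+TNFα replicate 4 (0.0489). Over 22 lineage transcription factors 5 were higher and 6 lower (7 and 8 with the replicate block), and 2 or 3 were higher without any one library other than DMSO replicate 4. In the alternative activation list 5 of 14 were higher and 5 lower. There, 2 or 3 were higher without DMSO replicate 1, 2 or 3 or TMP195+TNFα replicate 2, 3 or 4, and 2 or 3 were lower without DMSO replicate 4 or TMP195+TNFα replicate 1 or 2. Tgm2, a transglutaminase, changed by 1.35 ± 0.19 (adjusted p = 3.65e-05) and Tgfbr2, a receptor of TGF-β, by -0.94 ± 0.10 (adjusted p = 1.68e-06).

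Markers of other cell types moved at some genes while their defining partners were at 0. S100a8 and Lcn2 of the neutrophil list rose (4.39 ± 0.40 and 2.87 ± 0.29), while 5 of its 14 markers had no count, and the list's summed level was 55.9 to 95.4 CPM in DMSO and 100.3 to 136 CPM in TMP195+TNFα. In the lymphocyte list Il7r, the interleukin-7 receptor, stood at 77.9, 121, 86.2 and 48.4 CPM in DMSO, 84.5, 114, 104 and 46.9 CPM in TNFα and 229, 309.9, 275 and 205 CPM in TMP195+TNFα (1.61 ± 0.31, adjusted p = 0.000758), while Ighm and Cd79b, of B cells, changed by -2.33 ± 0.31 and -1.36 ± 0.20, and 3 of 15 markers had no count. Pf4, a platelet chemokine, stood at 1309, 1249, 1389.6 and 1133 CPM in DMSO and 1387, 1554, 1763 and 1544 CPM in TMP195+TNFα (0.30 ± 0.20, adjusted p = 0.298), and was called higher in the 8 libraries alone (0.0434, or 0.00219 with the replicate block). Ppbp, a further platelet chemokine and the other tested member of its list, was higher, at 1.73, 1.43, 1.61 and 1.51 CPM in DMSO and 5.51, 3.84, 11.6 and 7.65 CPM in TMP195+TNFα (2.18 ± 0.43, adjusted p = 0.000905), with 7 of the 12 markers of red cells and megakaryocytes at 0. The part of other cell types in these results was not tested. None of 10 mitochondrially encoded transcripts was called (2 lower with the replicate block).

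Lipid genes of macrophages were rearranged in both directions. Of 34 genes of lipid handling and of the liver X receptors 8 were higher and 10 lower, or 9 and 14 with the replicate block. Ppard, a fatty acid-sensing nuclear receptor, stood at 5.20, 6.65, 4.65 and 8.01 CPM in DMSO and 21.0, 27.3, 30.5 and 45.7 CPM in TMP195+TNFα (2.35 ± 0.26, adjusted p = 2.93e-06). Mylip, which degrades the LDL receptor, and Olr1, the oxidized LDL receptor LOX-1, changed by 0.91 ± 0.11 and 5.19 ± 0.77 (adjusted p = 8.69e-06 and 5.99e-05), Olr1 from 2, 2, 0 and 0 reads in the DMSO libraries. The cholesterol exporters Abca1 and Abcg1 changed by -0.63 ± 0.15 and -0.73 ± 0.21 (adjusted p = 0.00372 and 0.0136) and Cyp27a1, the sterol hydroxylase, by -1.36 ± 0.16 (adjusted p = 4.33e-06). Cd36 and Msr1, scavenger receptors, differed by -0.43 ± 0.22 and 0.22 ± 0.29 (adjusted p = 0.169 and 0.66), and Cd36 was called lower with the replicate block (0.0483) and Msr1 higher with the block in the 8 libraries alone (0.0279).

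Cholesterol synthesis depended on the replicate block: 1 of 25 genes was higher and 2 lower (median -0.46), and with the block 10 were lower. With TNFα alone the median was 0.28, and in the direct comparison it was -0.75. Without DMSO replicate 2, 5 genes were lower, and without DMSO replicate 4 or TMP195+TNFα replicate 2 or 3 none was. Dhcr7, the last reductase of the pathway, stood at 30.3, 22.2, 24.9 and 57.6 CPM in DMSO and 14.2, 12.5, 14.1 and 23.2 CPM in TMP195+TNFα (-1.07 ± 0.32, adjusted p = 0.0196), with overlap and with replicate 4 the highest of both groups, and its call was lost without DMSO replicate 4 or TMP195+TNFα replicate 1, 2 or 3 (0.0504 to 0.0997). In fatty acid synthesis Acsl1, which activates fatty acids with coenzyme A, stood at 47.4, 60.5, 49.8 and 52.2 CPM in DMSO and 397, 358, 438 and 379.9 CPM in TMP195+TNFα (2.90 ± 0.17, adjusted p = 7.69e-09), in a list with 2 of 18 higher and 1 lower (5 lower with the block). No member of it was lower without DMSO replicate 1, 3 or 4 or TMP195+TNFα replicate 1, 2 or 3, and 2 were without DMSO replicate 2. Lysosome genes were lower in 9 of 40 and higher in 3, with 15 lower under the block. Their share called without the block was near the 27.5% among all genes tested. Gusb, a hydrolase, Man2b1, a mannosidase, and Atp6v0a1, a proton pump subunit, changed by -0.72 ± 0.08, -0.99 ± 0.12 and -0.91 ± 0.12 (adjusted p = 2.53e-06, 6.1e-06 and 2.59e-05).

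Transcripts of the inhibited enzymes themselves differed from one another. Hdac9 (ENSMUSG00000004698) stood at 13.1, 8.77, 14.8 and 13.2 CPM in DMSO, 3.30, 4.02, 4.17 and 4.29 CPM in TNFα and 2.51, 2.67, 3.33 and 2.59 CPM in TMP195+TNFα (-2.17 ± 0.19, adjusted p = 2.57e-07). Hdac5 stood at 28.3, 25.6, 34.2 and 42.4 CPM in DMSO and 17.4, 13.4, 17.6 and 21.0 CPM in TMP195+TNFα (-0.91 ± 0.20, adjusted p = 0.00195). Neither differed between TMP195+TNFα and TNFα alone beyond the threshold (-0.51 ± 0.19 and -0.11 ± 0.20, adjusted p = 0.134 and 0.858). Hdac4 and Hdac7 differed from DMSO by -0.12 ± 0.16 and 0.08 ± 0.21 (adjusted p = 0.662 and 0.8287), with intervals of -0.47 to 0.23 and -0.36 to 0.52. Mef2c, a partner of these enzymes, changed by -1.41 ± 0.16 (adjusted p = 2.86e-06), and Maff, a small MAF factor, by 2.86 ± 0.29 (adjusted p = 9.3e-07) up to 1.86, 3.23, 3.81 and 4.12 CPM. The list of class IIa HDACs, MEF2 and immediate-early genes had 5 of 23 higher and 8 lower, with 3 higher without DMSO replicate 1, 2 or 3 or TMP195+TNFα replicate 3 or 4, and 5 lower without DMSO replicate 3 or 4 or TMP195+TNFα replicate 1, 2 or 3. Of 24 other deacetylases and corepressors 1 was higher and 0 lower, or 3 lower with the replicate block and 1 without TMP195+TNFα replicate 2. The higher gene was Sirt6 (0.76 ± 0.27, adjusted p = 0.0433), a call lost without DMSO replicate 1, 2 or 3 or TMP195+TNFα replicate 3 or 4 (0.0598 to 0.18).

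Interferon-stimulated genes were mostly not called: 10 of 48 were higher and 2 lower (median 0.17), or 15 and 4 with the replicate block. The share of this list called without the block was near the 27.5% among all genes tested. Without TMP195+TNFα replicate 1 there were 6 higher and 4 lower, and without DMSO replicate 1 or 4 or TMP195+TNFα replicate 2, 3 or 4 there was 1 lower. TMP195+TNFα replicate 1 had the highest Rsad2 and Cxcl10 levels of all 8 libraries. Rsad2, the antiviral enzyme viperin, stood at 302, 224, 103 and 91.9 CPM in DMSO, 242, 192, 171 and 117 CPM in TNFα and 809, 442, 414 and 213 CPM in TMP195+TNFα (1.38 ± 0.38, adjusted p = 0.0115; 0.0586 without TMP195+TNFα replicate 1), and the groups overlapped. Oasl1, an inhibitor of IRF7 translation, stood at 13.2, 13.1, 7.60 and 9.15 CPM in DMSO and 51.1, 29.5, 42.3 and 29.9 CPM in TMP195+TNFα (1.83 ± 0.24, adjusted p = 1.61e-05; 1.04 ± 0.23 against TNFα, adjusted p = 0.0123). Gbp2 and Gbp5, guanylate-binding proteins, and Ifi205, a nucleic acid-binding protein whose family shares sequence, changed by 1.55 ± 0.27, 1.80 ± 0.36 and 3.24 ± 0.48 (adjusted p = 0.000289, 0.00105 and 5.99e-05). Irf7, a regulator of this response, differed by 0.25 ± 0.20 (adjusted p = 0.424). Ifi27l2a fell by 1.29 ± 0.21 on the log2 scale (adjusted p = 0.000128). In antigen presentation 6 of 26 genes were higher and 1 lower (3 lower with the block). The share called without the block was near the 27.5% among all genes tested, so these are given as single genes. Cd274, encoding the inhibitory ligand PD-L1, went from 202, 240.4, 164 and 184 CPM to 656, 622, 602 and 471 CPM (1.57 ± 0.14, adjusted p = 3.77e-07), and Cd86, a costimulatory ligand, from 37.4 ± 8.59 to 17.4 ± 2.65 CPM (-1.11 ± 0.21, adjusted p = 0.000614).

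Growth factor genes were higher in 7 of 17 and lower in 4 (median 0.66), and 2 were lower without TMP195+TNFα replicate 2. With TNFα alone 4 were higher and 6 lower against the same DMSO libraries (median -0.35). Vegfa, the main angiogenic factor, stood at 16.2, 14.1, 13.5 and 10.9 CPM in DMSO, 9.89, 9.62, 11.9 and 10.2 CPM in TNFα and 29.8, 24.7, 29.5 and 28.9 CPM in TMP195+TNFα. It was called lower with TNFα alone (-0.39 ± 0.13, adjusted p = 0.0397) and higher with TMP195+TNFα (1.05 ± 0.13, adjusted p = 9.48e-06), and differed between these groups by 1.44 ± 0.13 (adjusted p = 3.34e-05). Gdf15, a stress-induced cytokine, stood at 36.6, 51.4, 41.2 and 50.3 CPM in DMSO and 114, 146, 167 and 172 CPM in TMP195+TNFα (1.74 ± 0.20, adjusted p = 3.57e-06; 0.84 ± 0.19 against TNFα, adjusted p = 0.0145). Inhba, the activin A subunit, changed by 2.82 ± 0.47 (adjusted p = 0.000188), and Csf1 by 0.87 ± 0.25 (adjusted p = 0.0164), a call lost without DMSO replicate 3 or 4 or TMP195+TNFα replicate 4 (0.053 to 0.0609). Hgf and Igf1, which encode hepatocyte and insulin-like growth factors, changed by -1.27 ± 0.22 and -0.78 ± 0.26 (adjusted p = 0.000272 and 0.029), and the call of Igf1 was lost without DMSO replicate 1, 2 or 3 or TMP195+TNFα replicate 2 or 4 (0.0554 to 0.0869).

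Adhesion and matrix genes split almost evenly, 10 of 35 higher and 9 lower. Mmp9, gelatinase B, stood at 3.68, 3.25, 8.14 and 6.397 CPM in DMSO and 65.6, 42.3, 102 and 69.3 CPM in TMP195+TNFα (3.70 ± 0.48, adjusted p = 1.61e-05). Icam1, a ligand of leukocyte integrins, stood at 143, 164, 114 and 248 CPM in DMSO and 297, 317, 343 and 418 CPM in TMP195+TNFα (1.04 ± 0.19, adjusted p = 0.000431), and neither gene overlapped between groups. Timp2, an inhibitor of matrix metalloproteinases, and Itga6, a laminin-binding integrin, changed by -1.72 ± 0.14 and -1.65 ± 0.15 (adjusted p = 1.08e-07 and 4.63e-07). Mmp12, macrophage elastase, stood at 860.5, 1072, 731 and 613 CPM in DMSO, 858, 836, 852 and 519 CPM in TNFα and 2163, 2185, 2119 and 1755 CPM in TMP195+TNFα (1.33 ± 0.29, adjusted p = 0.00206; 1.42 ± 0.29 against TNFα, adjusted p = 0.00743). Cell death genes were higher in 10 of 30 and lower in 4 (7 lower with the block). The inflammasome sensor Nlrp3, the death receptor Fas and the survival gene Ier3 changed by 1.78 ± 0.23, 1.53 ± 0.19 and 2.18 ± 0.15 (adjusted p = 1.46e-05, 9.11e-06 and 1.79e-08).

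**Figure D4:**
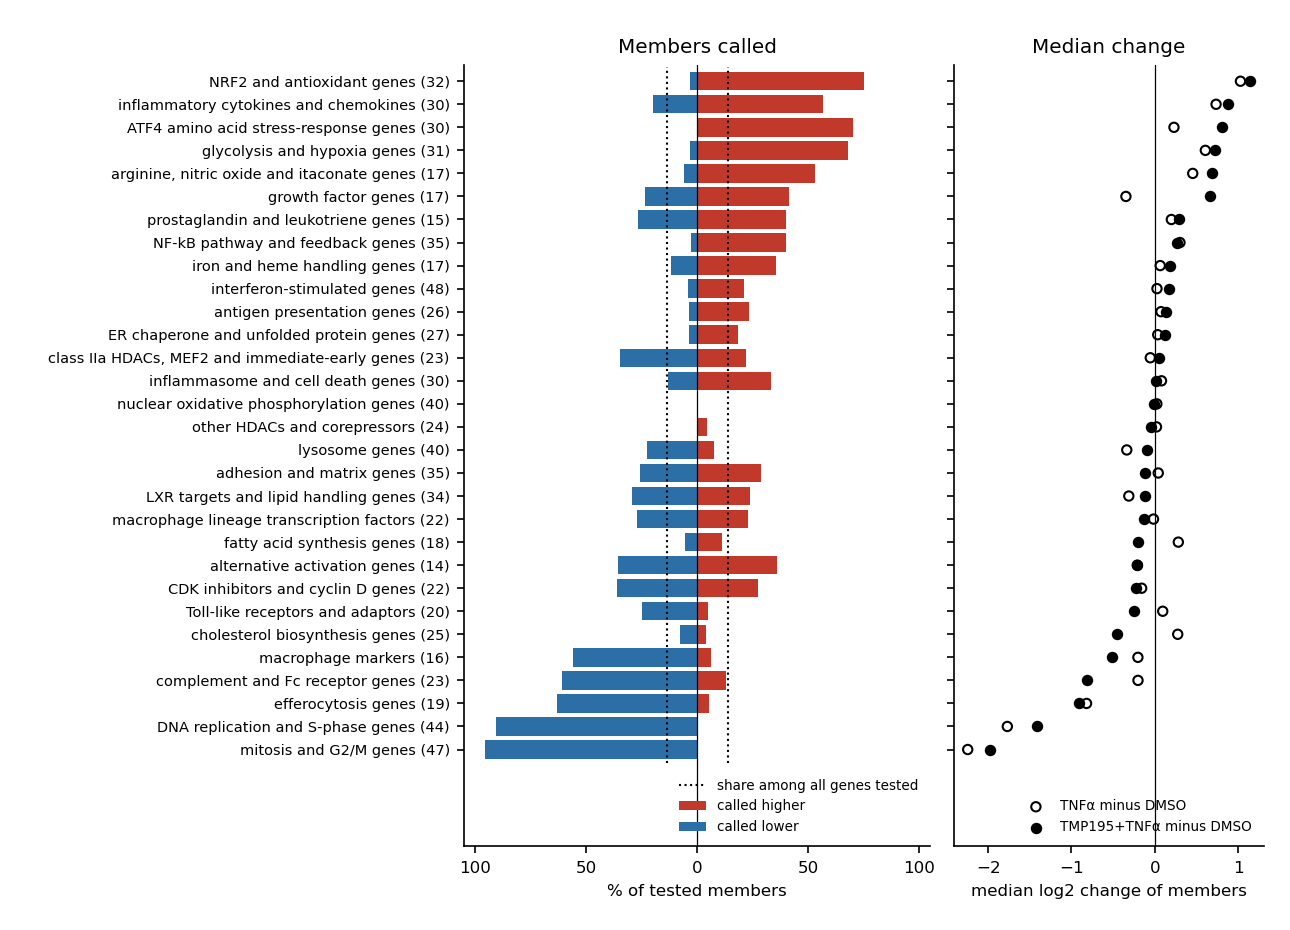
Left, the share of tested members called higher (red) or lower (blue) in TMP195+TNFα against DMSO for 29 pathway lists and the macrophage markers (number tested in parentheses), with dotted lines at the shares among all genes tested (13.6% and 13.9%). Right, the median log2 change of the members with TMP195+TNFα (filled) and with TNFα alone (open), which use the same DMSO libraries; the 2 cell division lists lie lowest, at -1.42 and -1.98 with TMP195+TNFα.

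Some genes were displaced with TMP195+TNFα from DMSO and, by the direct test, from TNFα alone in the same direction. Beyond Cdkn1c, Trib3 and Itgb3, the genes named above DMSO by this rule were Cd200 and Serpinb9b. Cd200, an inhibitory ligand for myeloid cells, stood at 3.94, 4.24, 3.53 and 1.40 CPM in DMSO, 6.99, 7.31, 7.72 and 2.41 CPM in TNFα and 28.5, 26.6, 29.1 and 12.6 CPM in TMP195+TNFα (2.88 ± 0.43, adjusted p = 5.99e-05; 1.98 ± 0.40 against TNFα, adjusted p = 0.00726). Replicate 4 was the lowest library of each group for Cd200. Serpinb9b, a serine protease inhibitor gene, stood at 19.6, 42.0, 16.4 and 12.7 CPM in DMSO, 54.0, 80.3, 67.0 and 37.2 CPM in TNFα and 174, 263, 215 and 199 CPM in TMP195+TNFα (3.23 ± 0.39 against DMSO, adjusted p = 7.51e-06; 1.83 ± 0.37 against TNFα, adjusted p = 0.00673).

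Below DMSO the corresponding genes were Gpr18, Gtse1, Ascl2, Trib1 and Psd3. Trib1, a pseudokinase that directs degradation of C/EBP factors, stood at 37.2, 31.2, 38.8 and 56.6 CPM in DMSO, 37.8, 30.3, 37.5 and 48.1 CPM in TNFα and 15.0, 14.2, 17.2 and 13.8 CPM in TMP195+TNFα (-1.45 ± 0.21, adjusted p = 5.88e-05). Psd3, an activator of the GTPase ARF6, stood at 73.0, 66.4, 71.8 and 70.3 CPM in DMSO, 54.0, 55.2, 56.5 and 61.9 CPM in TNFα and 24.9, 21.4, 23.6 and 21.0 CPM in TMP195+TNFα (-1.63 ± 0.18, adjusted p = 3.34e-06). For both genes every TMP195+TNFα library was below every library of the other groups. Gpr18, a G protein-coupled receptor, was called higher than DMSO with TNFα alone (0.64 ± 0.18, adjusted p = 0.0139) and lower with TMP195+TNFα (-0.86 ± 0.18, adjusted p = 0.00149). Gtse1, a microtubule-binding gene of G2 phase, and Ascl2, a basic helix-loop-helix factor, changed by -1.51 ± 0.33 and -0.94 ± 0.22 against DMSO (adjusted p = 0.00192 and 0.00332), and by -0.07 ± 0.31 and 0.44 ± 0.21 with TNFα alone (adjusted p = 0.91 and 0.146). With TNFα alone the estimates of Gpr18 and Ascl2 lay on the other side of DMSO, and whether their distance from DMSO differed was not tested.

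Other genes stayed displaced but lay nearer to DMSO than with TNFα alone. Above DMSO these were Saa3, Gja1, Tmc3, Ptgs2 and Pde4b. Saa3, an acute-phase apolipoprotein of macrophages, stood at 8.88, 10.6, 16.2 and 16.8 CPM in DMSO, 1176, 403, 1883 and 1671 CPM in TNFα and 362, 99.2, 514 and 282 CPM in TMP195+TNFα (4.58 ± 0.56, adjusted p = 7.58e-06; -2.03 ± 0.49 against TNFα, adjusted p = 0.0192). Replicate 2 was the lowest library of both stimulated groups. Gja1, which encodes the gap junction protein connexin 43, stood at 3.31, 4.19, 3.35 and 4.42 CPM in DMSO, 19.2, 18.1, 18.0 and 26.8 CPM in TNFα and 7.75, 7.45, 6.29 and 8.28 CPM in TMP195+TNFα (0.96 ± 0.23, adjusted p = 0.0047; -1.46 ± 0.22 against TNFα, adjusted p = 0.00117), with no overlap between any 2 groups. Tmc3, a transmembrane channel-like gene, and Pde4b, a phosphodiesterase of cyclic AMP, remained 1.32 ± 0.36 and 0.45 ± 0.15 log2 units above DMSO (adjusted p = 0.00947 and 0.0358), and the call of Pde4b was lost without any one library other than DMSO replicate 4 (0.0509 to 0.125).

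Below DMSO the genes that lay nearer were Tmem154, St6gal1, Nav2, Sh2d3c and Entpd1. Entpd1, encoding CD39, which degrades extracellular ATP, stood at 47.5, 29.4, 42.0 and 37.0 CPM in DMSO, 4.83, 6.33, 5.09 and 4.44 CPM in TNFα and 11.2, 12.4, 10.5 and 11.5 CPM in TMP195+TNFα (-1.77 ± 0.16, adjusted p = 4.03e-07; 1.14 ± 0.17 against TNFα, adjusted p = 0.000915). Nav2, a neuron navigator family gene, stood at 51.6, 45.6, 46.6 and 43.5 CPM in DMSO, 11.1, 10.6, 10.3 and 10.5 CPM in TNFα and 28.6, 21.6, 21.2 and 23.3 CPM in TMP195+TNFα (-0.98 ± 0.11, adjusted p = 2.19e-06; 1.16 ± 0.11 against TNFα, adjusted p = 3.34e-05). Both genes kept the 3 groups apart in every library. St6gal1, a sialyltransferase, Tmem154 and the adaptor Sh2d3c remained -0.97, -1.20 and -0.92 log2 units from DMSO (adjusted p = 0.000811, 0.00113 and 0.00527).

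**Figure D5:**
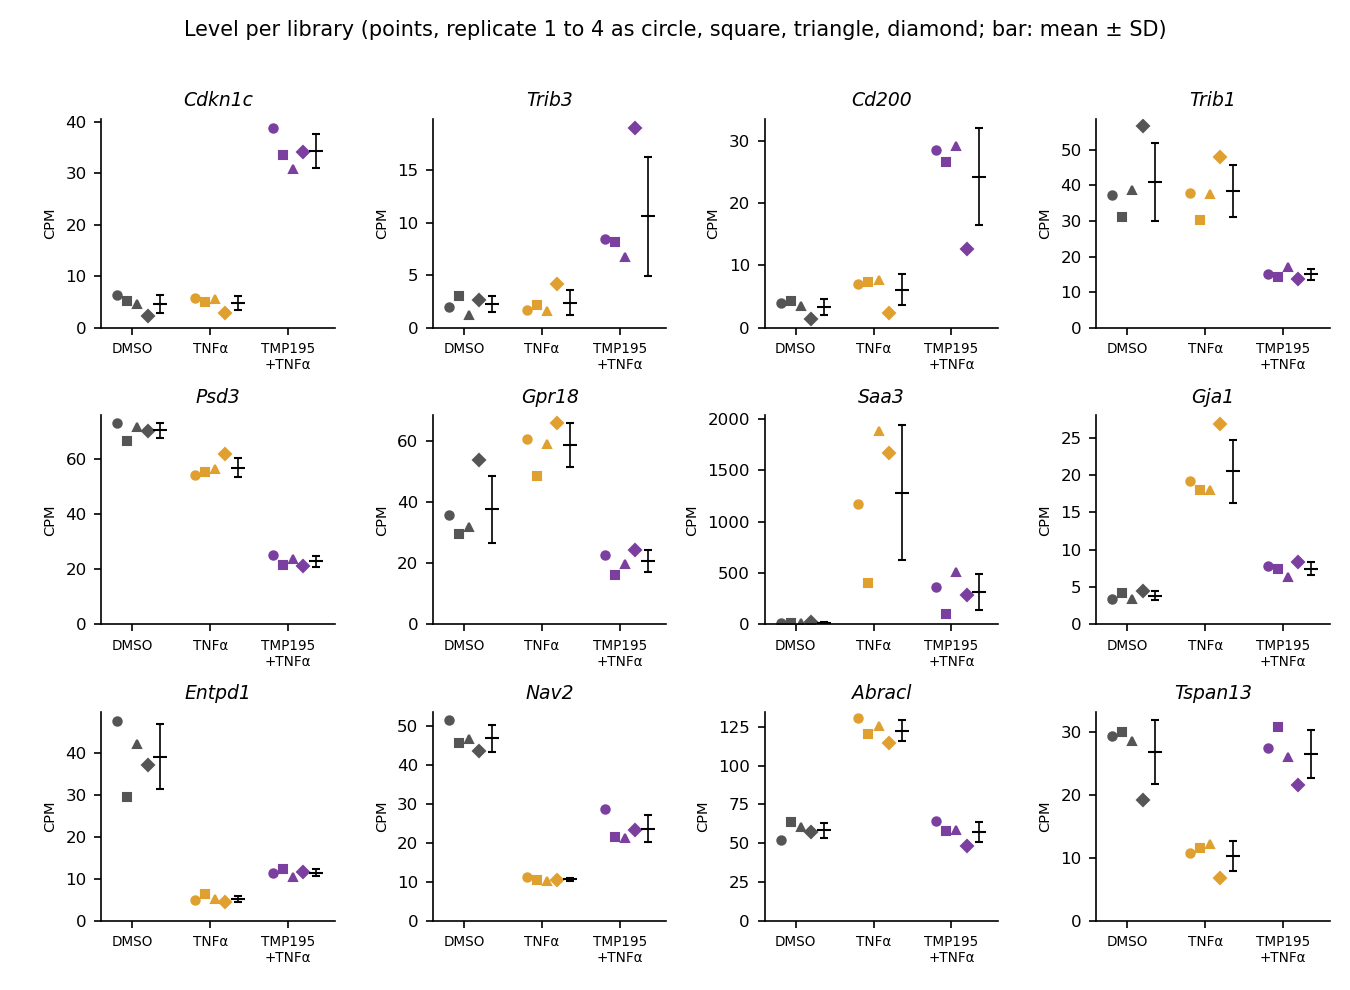
CPM (vertical axes, linear, from 0) of 12 genes in each DMSO, TNFα and TMP195+TNFα library, with replicates 1 to 4 as circle, square, triangle and diamond and bars for mean ± SD (n = 4). Cdkn1c, Trib3, Cd200, Trib1 and Psd3 lie farther from DMSO with TMP195+TNFα than with TNFα, Saa3, Gja1, Entpd1 and Nav2 lie between, and Abracl and Tspan13 overlap the DMSO points. Gpr18 was called above DMSO with TNFα and below it with TMP195+TNFα.

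A further set was called with TNFα alone and in the direct comparison but not between TMP195+TNFα and DMSO. A missed threshold does not show that levels were equal, so the interval of each difference is given. Abracl, an actin-regulating gene, stood at 52.4, 63.5, 60.6 and 57.0 CPM in DMSO, 131, 120.2, 126 and 114 CPM in TNFα and 64.2, 57.7, 58.3 and 48.2 CPM in TMP195+TNFα, a log2 difference from DMSO of -0.03 ± 0.15 with a 95% interval of -0.34 to 0.28 (adjusted p = 0.91). Klra2, a lectin-like receptor, and Mras, a RAS-related GTPase, differed from DMSO by -0.02 ± 0.21 and -0.23 ± 0.18, with intervals of -0.48 to 0.43 and -0.61 to 0.14 (adjusted p = 0.956 and 0.379). Cp, the ferroxidase ceruloplasmin, and Itgal, the αL integrin chain, differed by -0.43 ± 0.16 and -0.42 ± 0.17 (intervals -0.78 to -0.09 and -0.78 to -0.05, adjusted p = 0.0581 and 0.0886), and with the replicate block both were called below DMSO (adjusted p = 0.00535 and 0.00328). Cp was also called below DMSO with DESeq2 (0.0412) and limma voom (0.0487), without DMSO replicate 2 (0.0271) or TMP195+TNFα replicate 1 (0.0283), and Itgal without TMP195+TNFα replicate 4 (0.0423). All of these 5 genes were higher with TNFα alone than with DMSO, by 0.69 to 1.20 log2 units.

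Of the genes lower with TNFα alone, Tspan13, a tetraspanin, stood at 29.4, 30.1, 28.6 and 19.1 CPM in DMSO, 10.7, 11.6, 12.1 and 6.76 CPM in TNFα and 27.4, 30.8, 26.0 and 21.5 CPM in TMP195+TNFα (-0.02 ± 0.18, interval -0.41 to 0.37, adjusted p = 0.958). Mtus1, a microtubule-associated tumor suppressor, Tmod1, an actin-capping protein, and Rragd, a GTPase that recruits mTORC1 to lysosomes, differed from DMSO by -0.13 ± 0.22, -0.19 ± 0.23 and 0.39 ± 0.22. Their intervals were -0.59 to 0.33, -0.68 to 0.30 and -0.07 to 0.85 (adjusted p = 0.728, 0.624 and 0.213), and the DMSO and TMP195+TNFα libraries overlapped in each. Rragd was called above DMSO with the replicate block in the 8 libraries alone (0.00226). Atp6v0d2, a proton pump subunit of osteoclasts and macrophages, stood at 121, 85.1, 145 and 63.8 CPM in DMSO, 26.7, 21.7, 25.9 and 10.4 CPM in TNFα and 67.4, 66.4, 66.1 and 37.0 CPM in TMP195+TNFα (-0.81 ± 0.30, interval -1.45 to -0.17, adjusted p = 0.0578), and was called below DMSO with the replicate block (adjusted p = 0.00125), without DMSO replicate 4 (0.0243), with DESeq2 (0.0342), without the filter (0.0117), in the 8 libraries alone (0.0369) and less the shallow TPCA-1+TNFα library (0.0473). Tnfrsf11a, the receptor RANK of the osteoclast list, was not among these genes: it stood at 124, 113, 118 and 115 CPM in DMSO, 119.5, 107, 117 and 126 CPM in TNFα and 82.0, 63.7, 74.1 and 59.3 CPM in TMP195+TNFα, below both groups in every library (-0.75 ± 0.12 against DMSO, adjusted p = 8.47e-05; -0.75 ± 0.12 against TNFα, adjusted p = 0.00117). The osteoclast list did not move one way. Of its 8 tested members Mmp9 and Itgb3 (2 genes) were higher than DMSO and only Tnfrsf11a (1 gene) was lower, with a median of 0.31.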

How the data were processed

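RNA of bone marrow-derived macrophages was sequenced (16 libraries, 4 per treatment group). The deposited files hold read counts per gene on 3 strand settings, with STAR (2.6.1d) and the builds mm10 and GRCm38 named per the submitters' processing notes, and the annotation release is not given in the sources used here. Opposite-strand counts were used (same-strand counts were 3.19% to 3.65% of the assigned reads). The lines that name no gene, 20.99% to 23.6% of all reads in the 8 libraries, were left out of depth and tests. Of 54838 gene IDs, 54809 matched the GENCODE GRCm38 annotation, which gave symbols and positions.

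Counts were fitted with edgeR 4.0.16 (quasi-likelihood, TMM, filterByExpr) in R 4.3.3 over all 16 libraries with 1 mean per group, and 12612 genes were tested at a Benjamini-Hochberg adjusted p of 0.05. CPM use TMM-scaled library sizes. Errors beside log2 changes are SE and those beside mean CPM are SD (n = 4), and intervals are 95%. Alternatives were RLE size factors, DESeq2 1.42.0, limma 3.58.1 voom, no filter, unstranded counts, only the 8 libraries, no shallow TPCA-1+TNFα library, a replicate block, and each library left out. Libraries with the same replicate number deviated together (r = 0.27 to 0.65 for same numbers, -0.38 to 0.043 for different ones), so the replicate block takes the numbers as pairs. The main fit has no replicate term and leaves this pairing out. It gives every SE, interval, adjusted p and call for which no other setting is named. Blocked values are given for many but not all genes in the text whose call against DMSO they change, and for part of the lists. Members named as not called without a blocked value may be called with the block. Other list counts may also differ with the block. No 2 libraries of a group were alike within sampling noise (chi-square per gene 13.97 to 64.88). The code was tested on simulated data.

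The 39 gene lists and the choice of comparison were made with earlier results of these data known. Named genes are those with the 8 largest rises and falls (mean at least 5 CPM, no overlap), up to 3 of smallest p per list and 16 genes of the pathway and its targets. Added to these are genes displaced most from TNFα in the direction of their change from DMSO, and those nearest to DMSO relative to TNFα. Other genes were chosen after their values were seen. Results for some genes are not reported here.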

Additional observations from a re-analysis of the deposited data

Results flagged for a closer look

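In some genes named in the text, 1 library lay far from the other 3 of its group, by Dixon's ratio of the gap to the range at its 95% critical value for 4 libraries, a test that chance alone passes in about 1 of 20 groups. It was met by 30 of 426 groups tested, over 213 genes. Values are CPM, with the range of the other 3 libraries after each.

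DMSO replicate 4 stood high for Cxcl3 (2.03 against 0.492 to 0.735), Tnf (309.6 against 219 to 223), Nfkbia (196 against 121 to 125), Herpud1 (352 against 219 to 231), Sirt6 (12.8 against 6.75 to 7.62), Hdac7 (6.4 against 4.09 to 4.41), Zyx (149 against 91.2 to 96.9), Gpx1 (411 against 288 to 299) and Cdkn1a (638 against 429 to 458). It stood low for Tspan13 (19.1 against 28.6 to 30.1) and Arpc5 (1418 against 1562 to 1566). DMSO replicate 2 stood high for Hmox1 (1836 against 1049 to 1116) and for Cxcl5 (0.197 against 0 in the others), and low for Gusb (373 against 411 to 416) and Cp (50.1 against 66.3 to 68.8). DMSO replicate 3 stood high for Lifr (11.4 against 7.85 to 8.25).

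TMP195+TNFα replicate 4 stood high for the stress-response genes Mthfd2 (122 against 86.5 to 91.4) and Trib3 (19.0 against 6.77 to 8.46). The same library was high for Hyou1 (100.3 against 73.0 to 75.9), Dhcr7 (23.2 against 12.5 to 14.2), Sirt6 (21.6 against 11.5 to 13.2) and Actg1 (1632 against 1048 to 1147). It stood low for Cd200 (12.6 against 26.6 to 29.1), Atp6v0d2 (37.0 against 66.1 to 67.4) and Mmp12 (1755 against 2119 to 2185). TMP195+TNFα replicate 2 stood high for Btg1 (83.4 against 67.9 to 70.1) and Lifr (2.95 against 2.62 to 2.68) and low for Egln3 (19.2 against 24.5 to 24.8). TMP195+TNFα replicate 1 stood low for Tnfaip3 (184 against 218 to 225), and replicate 3 stood high for Ccr1 (41.4 against 28.0 to 28.9).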

How the results depend on the processing

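The count of called genes (3463) was 6205 with the replicate block in only the 8 libraries, with 3092 higher and 3113 lower, and the direct comparison with TNFα went from 750 to 1699 with the block. Under the other settings the total stayed within 1.5 times: 3464 with RLE size factors, 3837 with DESeq2, 3554 with limma voom, 3220 without a filter, 3414 with unstranded counts, 3649 with only the 8 libraries, 3909 less the shallow TPCA-1+TNFα library and 4622 with the block in all libraries. Leaving out 1 library gave 2907 (DMSO replicate 3) to 3287 genes (DMSO replicate 2), 1390 to 1603 higher and 1484 to 1684 lower, and 1273 to 1450 with at least 2-fold change.

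No named gene called in the main fit or in the setting concerned changed the sign of its log2 change under any of 17 settings. A change of sign in a gene called in neither was not counted. Of 209 named genes called, 186 were called in all 17 settings and 23 lost the call in 1 or more. The block in only the 8 libraries moved several list counts further than the values in the text, for example to 7 lower NF-kB genes, 18 lower cholesterol genes, 23 higher interferon-stimulated genes, and 5 higher and 6 lower oxidative phosphorylation genes. Depth limits low genes: 3 counts are 0.131 to 0.161 CPM in these libraries, and Apoe and DMSO levels of Csf3, Susd2 and Adh7 lie near or under it.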

Other observations

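Several transcripts of actins and actin-binding proteins were picked by hand after their values were seen, so they are given as single genes and stand for no group. Actb, cytoplasmic β-actin, stood at 19815, 17817, 17722 and 22245 CPM in DMSO, 16752, 14878, 14814 and 18719.7 CPM in TNFα and 12150.2, 10449, 11030.5 and 11025 CPM in TMP195+TNFα (-0.80 ± 0.11 against DMSO, adjusted p = 2.68e-05; -0.55 ± 0.11 against TNFα, adjusted p = 0.00631). The 4 TMP195+TNFα libraries were below all others. Lcp1, the leukocyte actin-bundling plastin, went from 4464 ± 355 to 2816 ± 122 CPM (-0.66 ± 0.09, adjusted p = 2.7e-05), and Coro1a, Cnn2, Cotl1 and Zyx, which encode a coronin, a calponin, a coactosin and zyxin, changed by -0.82 ± 0.20, -1.39 ± 0.26, -1.19 ± 0.30 and -0.76 ± 0.19 (adjusted p = 0.00426, 0.000614, 0.00652 and 0.00595). Actg1, the other cytoplasmic actin, differed by -0.29 ± 0.15 (interval -0.62 to 0.03, adjusted p = 0.185; 0.0282 without TMP195+TNFα replicate 4 and 0.00153 with the replicate block in the 8 libraries alone). Arpc2 and Arpc5, subunits of the Arp2/3 complex, and Tln1, talin, changed by -0.28 ± 0.08, -0.41 ± 0.12 and -0.57 ± 0.19 (adjusted p = 0.0185, 0.015 and 0.0288). The call was lost for Arpc2 without the filter (0.126), DMSO replicate 1 or TMP195+TNFα replicate 3 or 4 (0.0564 to 0.0607), for Arpc5 without TMP195+TNFα replicate 4 (0.055), and for Tln1 without DMSO replicate 4 or TMP195+TNFα replicate 1, 2 or 3 (0.0515 to 0.116). Ezr, which encodes ezrin, a linker of membrane and actin, moved the other way, from 12.6, 22.9, 13.8 and 15.0 CPM to 174, 215, 215 and 281 CPM (3.78 ± 0.20, adjusted p = 2.18e-09), and tropomyosin Tpm4 rose by 0.61 ± 0.09 (adjusted p = 6.01e-05).

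A further group, also chosen after values were seen, was displaced from DMSO and from TNFα alone in the same direction. Pdpn, encoding the glycoprotein podoplanin, stood at 18.6, 20.4, 10.8 and 7.85 CPM in DMSO, 24.4, 22.0, 18.7 and 11.003 CPM in TNFα and 67.2, 66.0, 59.1 and 34.8 CPM in TMP195+TNFα (1.98 ± 0.32, adjusted p = 0.000135; 1.58 ± 0.31 against TNFα, adjusted p = 0.00604). Ccr1, a chemokine receptor, and Slc43a3, a nucleobase transporter, were 0.86 ± 0.27 and 0.83 ± 0.13 above DMSO (adjusted p = 0.0246 and 0.0001), although with TNFα alone they differed from DMSO by -0.52 ± 0.28 and -0.46 ± 0.13 (adjusted p = 0.203 and 0.0145). The call of Ccr1 was lost without DMSO replicate 1 or 4 or TMP195+TNFα replicate 3 (0.0614 to 0.0917). Lifr, a receptor for leukemia inhibitory factor, Sulf2, a heparan sulfatase, Sla, an adaptor that restrains receptor signalling, and the homeodomain factor Pbx3 changed by -1.70 ± 0.26, -2.17 ± 0.20, -0.85 ± 0.14 and -1.21 ± 0.17 (adjusted p = 8.46e-05, 5.12e-07, 0.00015 and 4.41e-05). In the direct comparison with TNFα they differed by -1.17 ± 0.26, -1.03 ± 0.20, -1.04 ± 0.14 and -1.10 ± 0.17 (adjusted p = 0.0123, 0.00603, 0.000458 and 0.00143).

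Of 1490 tested genes that are not protein-coding, 222 (14.9%) were called, 109 higher and 113 lower, beside 3241 of 11122 protein-coding genes (29.1%).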
